A study of Mus musculus with 80 samples.

Results

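Serotonin receptors are the family of cell surface proteins that respond to serotonin, and 10 of their genes, Htr1a, Htr1b, Htr1d, Htr1f, Htr2a, Htr2c, Htr3a, Htr4, Htr5a and Htr7, were followed across the brain of virgin and primiparous mice. The members were taken by gene symbol from the 27179 genes of the count table, and all 10 have a row there. On GRCm38 with GENCODE annotation, the genes span chr13:105443639-105448122 (Htr1a), chr9:81628291-81633828 (Htr1b), chr4:136423524-136444398 (Htr1d), chr16:64924729-65105854 (Htr1f), chr14:74640840-74709494 (Htr2a), chrX:146962513-147197277 (Htr2c), chr9:48899213-48911099 (Htr3a), chr18:62324204-62496577 (Htr4), chr5:27842149-27855088 (Htr5a) and chr19:35958734-36057507 (Htr7). Reads were counted by the authors over the mm10 exons that come with featureCounts, not over those of GENCODE. The count table holds 77 of 80 labelled RNA-seq libraries from 16 females, C57BL/6 in the labels and C57BL/6J in the study's methods, in 5 regions: the whole hypothalamus and the left hippocampus, cortex, cerebellum and amygdala. The virgin group was 8 females that were never mated. The primiparous group was 8 females of the same age that were placed with a male at 8 weeks of age for 2 weeks, raised a single litter and had weaned it 3 weeks before harvest by the labels, and longer by the study's methods. Neither group carried a transgene or received a drug, and all tissue was taken on the same day from mice of one animal room. The groups also differ in having met a male and in housing, since the virgin females shared a cage with 7 others and each mated female was in a pen with a male for the 2 weeks, so mating, pregnancy, nursing, male contact and cage density cannot be told apart. Each region has 8 primiparous libraries, with 8 virgin libraries in the hypothalamus and cortex and 7 in the hippocampus, cerebellum and amygdala. By the study's methods a library of each of the last 3 regions was removed as an outlier in a principal component analysis, and the 3 labelled samples without a column are virgin samples of these regions.

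Serotonin is made by neurons of the brainstem raphe nuclei, whose axons reach all of the forebrain and the cerebellum, and it acts on the receiving cells through receptors that differ in what they do inside the cell. The Htr1 and Htr5 receptors couple to inhibitory G proteins that lower cyclic AMP, the Htr2 receptors couple to Gq and phospholipase C, Htr4 and Htr7 couple to stimulatory G proteins that raise cyclic AMP, and Htr3a encodes a subunit of an ion channel opened by serotonin. In the hypothalamus serotonin is known for its part in feeding, body temperature and the release of hormones such as prolactin and oxytocin.

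Library totals ran from 7959192 to 37871854 assigned reads, and levels are given as CPM, the count scaled to the same total in each library. The test was run on genes that reached 5 CPM in 8 libraries or more, which kept 13016 genes and 8 of the 10 receptors. Htr1d reached 5 CPM in 2 libraries and Htr1f in 1, so their test values come from a fit without this filter and are named as such. In a check of the region labels, the summed level of 6 hypothalamic markers was 856 to 1518 CPM in the hypothalamus and at most 77.2 CPM elsewhere, and 5 hippocampal markers (352 to 592 CPM) and 3 cerebellar granule cell markers (2253 to 3164 CPM) also lay above every library of the other regions. The cortex and amygdala were not separated in this way: 4 cortical markers summed to 599.5 to 996 CPM in the cortex and 378 to 629 CPM in the amygdala, and 4 amygdala markers to 218 to 295 CPM in the amygdala and 156 to 285 CPM in the cortex. The hippocampus library of primiparous animal 413 stood apart, with 705 CPM of 7 Purkinje and granule cell markers against 125 to 184 CPM in the other hippocampus libraries. Without this library none of the 32 comparisons of neighbouring regions for the 8 receptors tested changed its call; those of Htr1d and Htr1f were not refitted. The summed level of 4 thalamus markers reached 204 CPM in a virgin hypothalamus library (group median 77.6) and 161 CPM in a virgin hippocampus library (group median 61.9). The primiparous maxima were 89.5 and 70.2 CPM, in the same order. The part of thalamus tissue in the receptor levels was not tested. In 4 hippocampus and 4 cerebellum libraries the summed level of 10 choroid plexus markers was over 4 times the median of the region. Tph2, Slc6a4 and Fev, which define serotonergic neurons, were nearly absent, with a summed level of at most 3.23 CPM in any library. In tissue RNA, fewer cells of a type and less RNA per cell cannot be told apart.

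The sequences just upstream of 4 of these genes are shown where the transcripts described below begin, because Htr2c, Htr1a and Htr7 have the widest range of region means on log2(CPM + 4) and Htr5a the smallest fold between its highest and lowest region. Each comes from the window of 250 bases before the gene's start in the RefSeq promoter set (GRCm38.p6), 5′ to 3′ on the gene's strand, with capitals for GGGCGG or CCAAT on either strand. The RefSeq and GENCODE starts differ: 147 bases of the Htr7 window and 54 of the Htr1a window lie inside the GENCODE gene and are not printed. The Htr5a window ends at chr5:27841946, short of the GENCODE start at 27842149, and the bases between them are not printed. The printed bases are chrX:146962263-146962512 (+) for Htr2c, chr13:105443443-105443638 (+) for Htr1a, chr19:36057508-36057610 (-) for Htr7 and chr5:27841697-27841946 (+) for Htr5a.
Htr2c: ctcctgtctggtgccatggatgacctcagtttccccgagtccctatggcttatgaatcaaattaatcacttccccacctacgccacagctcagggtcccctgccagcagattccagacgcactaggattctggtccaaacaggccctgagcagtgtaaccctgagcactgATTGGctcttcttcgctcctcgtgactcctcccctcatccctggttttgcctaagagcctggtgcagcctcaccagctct
Htr1a: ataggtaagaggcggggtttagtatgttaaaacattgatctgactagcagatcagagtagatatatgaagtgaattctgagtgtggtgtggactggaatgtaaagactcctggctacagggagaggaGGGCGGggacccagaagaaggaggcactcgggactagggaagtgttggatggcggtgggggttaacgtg
Htr7: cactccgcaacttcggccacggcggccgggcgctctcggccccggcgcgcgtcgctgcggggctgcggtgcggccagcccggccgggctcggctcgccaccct
Htr5a: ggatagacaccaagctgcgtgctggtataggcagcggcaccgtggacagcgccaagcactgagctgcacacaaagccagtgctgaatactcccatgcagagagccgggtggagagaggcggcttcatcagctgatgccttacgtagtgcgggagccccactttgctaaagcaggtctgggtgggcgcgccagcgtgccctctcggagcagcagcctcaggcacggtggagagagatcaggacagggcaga
The whole Htr7 window was 82.0% G or C and held 41 CpG dinucleotides, against a median of 52.4% and 6 over all 32851 windows. The Htr5a window held 13 CpG, that of Htr1a 6 and that of Htr2c 5. GGGCGG, a match for Sp-type factors, was present once for Htr1a and in 32.7% of all windows, and CCAAT was present once for Htr2c and in 33.8%. None of the 9 windows found for 8 receptors held TATAAA (12.4% of all windows), CACGTG (6.02%), TGACGTCA (1.55%) or TTCAGCACC (0.301%). These are matches of letters and were not tested as binding sites.

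The first comparison asks how each receptor is spread over the 5 regions. Receptor mRNA summed over the 10 genes and divided by GENCODE exon length (RPKM, CPM per kilobase of exon) was 37.2 ± 2.42 (SD, n = 16) in the hypothalamus, 33.3 ± 3.66 (n = 15) in the amygdala, 30.8 ± 2.47 (n = 15) in the hippocampus, 20.4 ± 2.88 (n = 16) in the cortex and 4.51 ± 0.699 (n = 15) in the cerebellum. The make-up differed by region. Htr2c was 36.8% of the summed RPKM in the amygdala and 30.6% in the hypothalamus, where Htr7 added 28.5%. Htr1a led the hippocampus with 33.0%, followed by Htr3a with 15.5%. In the cortex no receptor led clearly, with Htr5a at 18.9%, Htr1a at 18.8%, Htr3a at 17.3% and Htr7 at 16.0%. In the cerebellum Htr5a was 35.5% and Htr1b 28.1%. Without the libraries high in choroid plexus markers the sum was 30.0 ± 1.88 in the hippocampus and 4.23 ± 0.451 in the cerebellum (SD, n = 11 each), with the same leading receptors and Htr2c at 11.9% in place of 14.0% and at 10.4% in place of 14.7%. The sums and shares rest on the exon lengths, and the reads were not counted over the GENCODE exons that give these lengths. When only the GENCODE transcripts paired with a curated RefSeq transcript were used, Htr1b measured 1273 bases in place of 4724 and Htr2c 4747 in place of 9328, and the other 8 receptors changed by at most 1.08-fold. The sum was then 51.7 ± 3.84 in the hypothalamus, 47.0 ± 5.44 in the amygdala, 36.2 ± 3.65 for hippocampus, 23.0 ± 3.31 for cortex and 8.64 ± 1.54 for cerebellum, so the order of regions was the same. Htr2c was 51.2% of the sum in the amygdala and 43.2% in the hypothalamus, Htr2c followed Htr1a in the hippocampus with 23.2%, and Htr1b led the cerebellum with 54.3%, ahead of Htr5a with 18.7%.

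**Figure D1:**
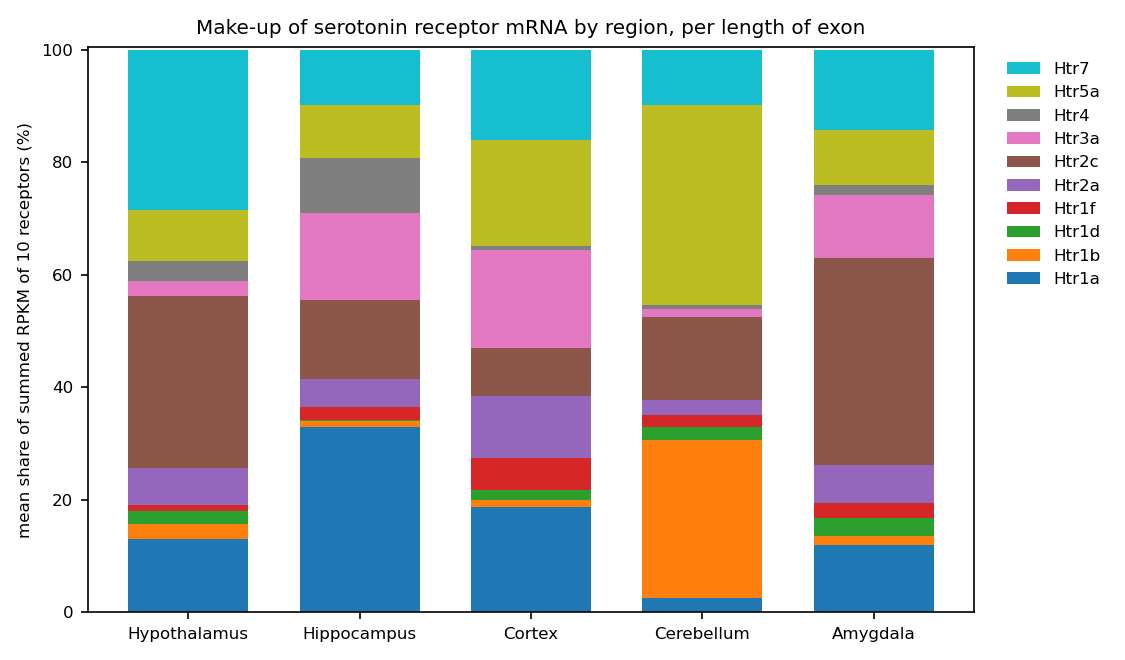
Mean share of each receptor in the summed RPKM of the 10 receptors (vertical axis, percent) in each region (bars, 15 or 16 libraries each). Htr2c takes the widest band in the amygdala and hypothalamus, Htr1a in the hippocampus and, with GENCODE exon lengths, Htr5a in the cerebellum, where RefSeq-paired lengths put Htr1b first.

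Region pairs were tested with edgeR's quasi-likelihood test in a single fit of the 77 libraries. Of the 8 receptors tested, all 8 differed between the cerebellum and each of the other 4 regions, where 81.1% (hypothalamus), 78.7% (hippocampus), 79.9% (cortex) and 80.2% (amygdala) of all genes tested were called. In each of these pairs 7 receptors were lower in the cerebellum and Htr1b was higher, while 40.0%, 38.5%, 39.7% and 38.8% of all genes were lower there in the same order. Between forebrain regions, 7 of 8 receptors differed for hypothalamus and hippocampus (73.0% of all genes), 7 for hypothalamus and cortex (77.7%), 4 for hypothalamus and amygdala (71.0%), 7 for hippocampus and cortex (67.0%), 7 for hippocampus and amygdala (58.7%) and 5 for cortex and amygdala (62.5%). Whether the receptors stand apart from other genes was not tested. When the regions were put in order by mean CPM for each receptor, 23 of the 32 neighbouring pairs differed at adjusted p under 0.05. The region with the highest mean was the same in virgin and primiparous mice for 9 of 10 receptors, with Htr1d as the exception, and the whole order was the same for 6.

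**Figure D2:**
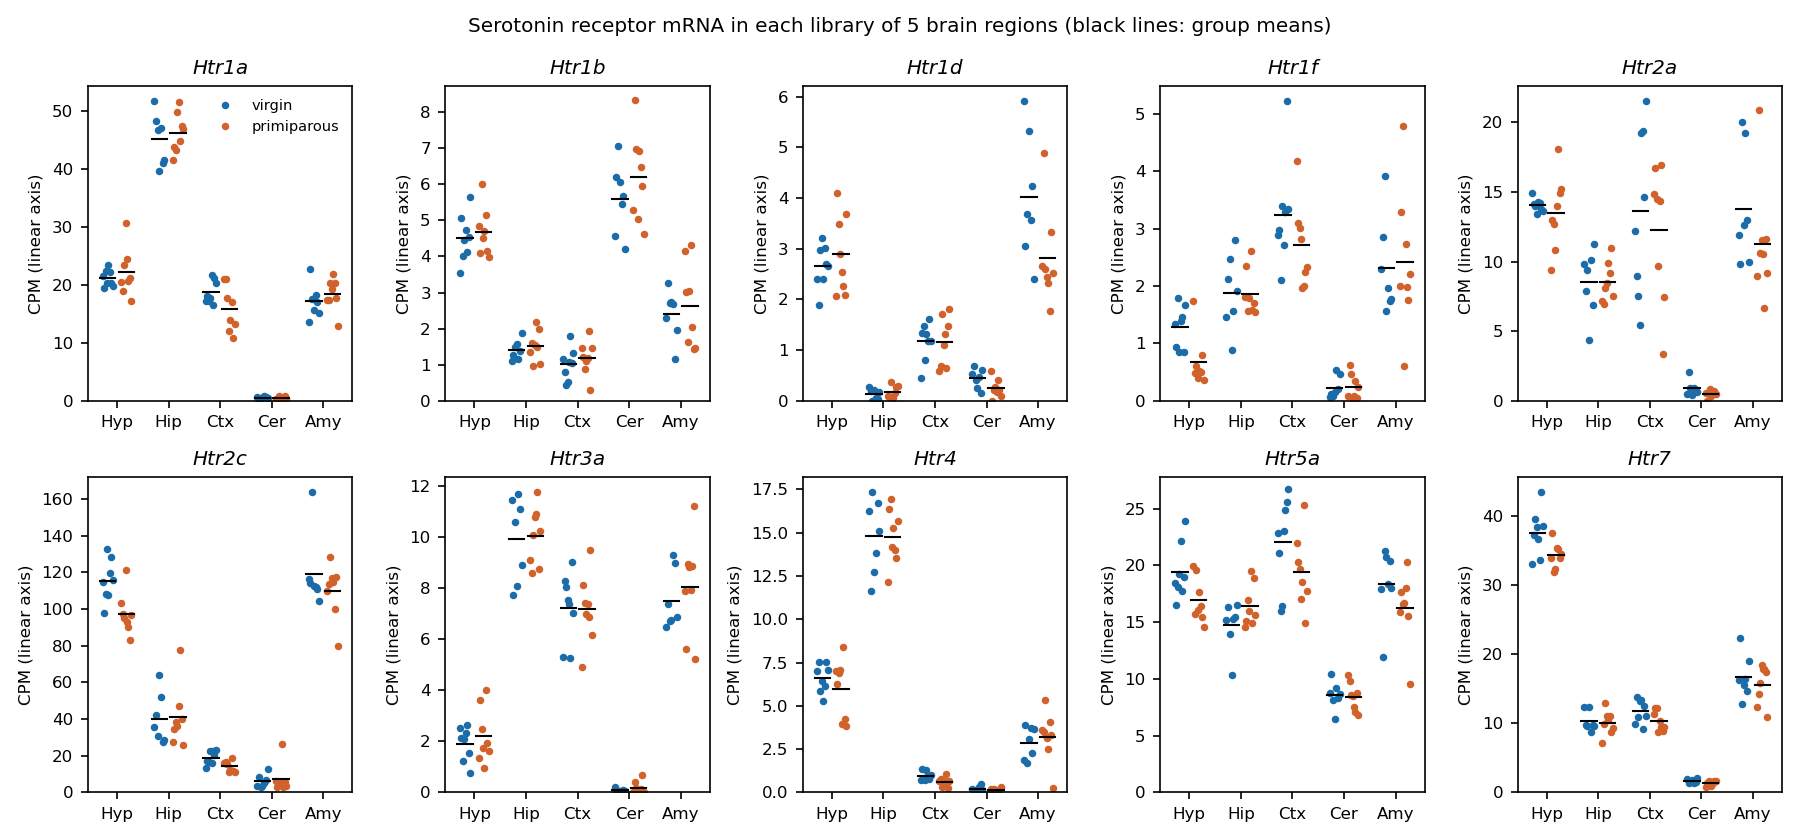
CPM of each receptor (vertical axes, linear, each with its own range) in every library of the hypothalamus (Hyp), hippocampus (Hip), cortex (Ctx), cerebellum (Cer) and amygdala (Amy), with virgin libraries in blue, primiparous libraries in orange and group means as black lines. Htr1a, Htr3a and Htr4 peak in the hippocampus, Htr7 in the hypothalamus and Htr1b in the cerebellum.

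Htr1a, the inhibitory receptor found on raphe neurons themselves and on their target neurons, was highest in the hippocampus, at 39.6 to 51.7 CPM (median 46.6). It was 17.2 to 30.7 CPM (median 21.0) in the hypothalamus, 12.9 to 22.7 (17.6) in the amygdala, 10.8 to 21.8 (17.5) in the cortex and at most 0.891 (0.512) in the cerebellum. The hippocampus libraries did not overlap with those of any other region. The hippocampus exceeded the hypothalamus by 1.22 ± 0.087 on the log2 scale (SE, edgeR adjusted p = 6.8e-22). The hypothalamus and amygdala did not differ by this test (0.14, 95% interval -0.033 to 0.32, adjusted p = 0.15), nor did the amygdala and cortex (0.069, -0.11 to 0.24, adjusted p = 0.51). The mean over the 5 regions spanned 89.9-fold, over a cerebellum mean of 0.507 CPM that rests on 146 reads in 15 libraries.

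Htr1b, an inhibitory receptor of axon terminals, was the one member with its highest mean in the cerebellum, at 4.20 to 8.32 CPM (median 5.94), followed by the hypothalamus at 3.53 to 6.02 (4.52), the amygdala at 1.16 to 4.30 (2.69), the hippocampus at 0.976 to 2.17 (1.49) and the cortex at 0.294 to 1.94 (1.12). Each neighbour differed, with the smallest difference between cerebellum and hypothalamus (0.36 ± 0.15, adjusted p = 0.019), although the libraries of these regions overlapped. The hippocampus exceeded the cortex by 0.44 ± 0.17 (adjusted p = 0.019), and this call was lost without the libraries high in choroid plexus markers (adjusted p = 0.061) and with the animal as a block plus a correction for gene length and GC content (adjusted p = 0.093). In GENCODE an antisense gene, D430036J16Rik, shares 852 exon bases with Htr1b, and as the library kit does not keep the strand their reads cannot be told apart.

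Htr1d and Htr1f, close relatives of Htr1b, were sparse. Htr1d was 1.77 to 5.91 CPM (median 3.06) in the amygdala and 1.88 to 4.10 (2.67) in the hypothalamus, which did not differ in the fit without the filter (0.40, interval 0.0050 to 0.79, adjusted p = 0.094). It was 0.461 to 1.82 CPM in the cortex and at most 0.689 CPM in the cerebellum and 0.379 CPM in the hippocampus, a set of 15 libraries with 49 Htr1d reads in all. Htr1f was 1.96 to 5.22 CPM (median 2.92) in the cortex, 0.611 to 4.78 (1.99) in the amygdala, 0.885 to 2.79 (1.80) in the hippocampus, 0.358 to 1.80 (0.849) in the hypothalamus and at most 0.619 in the cerebellum. The cortex, amygdala and hippocampus overlapped widely for Htr1f, and their neighbouring differences did not pass (adjusted p = 0.19 and 0.35 without the filter).

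Htr5a, the remaining inhibitory receptor, had a 2.44-fold span of region means, the smallest of the family as a ratio of mean CPM but not on log2(CPM + 4), where Htr1b spanned 0.95 and Htr5a 0.98, and at least 5 CPM in all 77 libraries. It was 14.9 to 26.7 CPM (median 20.7) in the cortex, 14.6 to 23.9 (17.9) in the hypothalamus, 9.51 to 21.3 (17.9) in the amygdala, 10.3 to 19.5 (15.5) in the hippocampus and 6.49 to 10.5 (8.62) in the cerebellum. The cortex exceeded the hypothalamus by 0.31 ± 0.080 (adjusted p = 0.00033). By mean CPM the hypothalamus, amygdala and hippocampus followed each other without a difference past the threshold (adjusted p = 0.45 and 0.13). The fitted hypothalamus minus amygdala difference was -0.070, opposite to the order by mean CPM. The amygdala exceeded the hippocampus in the fit with the animal block and the length and GC correction (adjusted p = 0.034).

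Of the receptors coupled to Gq, Htr2c, which acts on feeding circuits and is also abundant in choroid plexus, had the highest level of the family on the RPKM scale, with either set of exon lengths, in the amygdala (12.3 ± 1.85, SD, n = 15) and the hypothalamus (11.4 ± 1.53, n = 16). Its CPM was 80.1 to 164 (median 114) in the amygdala, 83.4 to 133 (106) in the hypothalamus, 26.0 to 77.8 (36.3) in the hippocampus, 11.1 to 22.9 (16.5) in the cortex and 2.79 to 26.6 (4.99) in the cerebellum. The amygdala and hypothalamus overlapped over most of their range and lay above every library of the other regions. Their difference did not pass in the main fit (0.25, interval -0.064 to 0.57, adjusted p = 0.16) but did with limma-voom (adjusted p = 0.026), with the block and length and GC correction (adjusted p = 0.038) and without the choroid plexus libraries (adjusted p = 0.0058).

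Within the hippocampus and cerebellum Htr2c moved with the choroid plexus markers. In the 4 hippocampus libraries with marker sums of 930 to 4050 CPM, most of it Ttr, Htr2c was 47.0 to 77.8 CPM. In the other 11, with sums of 66.5 to 194 CPM, it was 26.0 to 42.1. In the 4 cerebellum libraries with sums of 585 to 3704 CPM, Htr2c was 7.0 to 26.6 CPM, against 2.79 to 5.96 in the other 11 with sums of 47.3 to 168 CPM. The libraries with high sums did not overlap with the rest in either region. These 8 libraries came from both groups, and the highest Htr2c values were those of primiparous animal 425 in the hippocampus and primiparous animal 421 in the cerebellum. The part of the choroid plexus in the Htr2c level was not tested beyond leaving these libraries out, which left means of 33.4 ± 5.64 CPM (SD, n = 11) in the hippocampus and 4.13 ± 1.20 (n = 11) in the cerebellum. The hypothalamus, cortex and amygdala had no such library, with sums of 18.1 to 109 CPM.

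**Figure D3:**
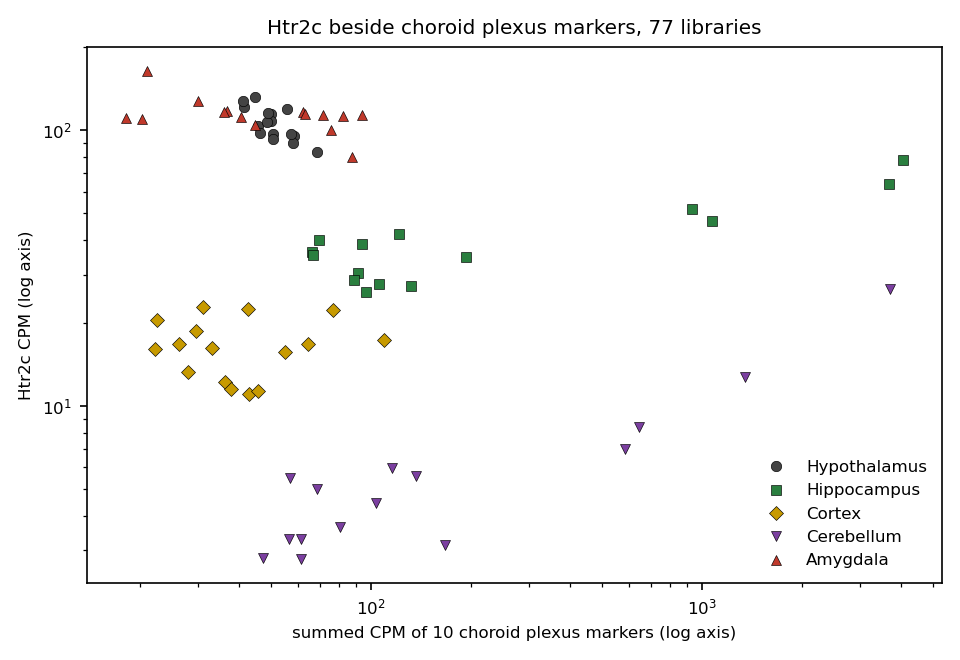
Htr2c CPM (vertical axis, log) against the summed CPM of 10 choroid plexus markers (horizontal axis, log) in each of the 77 libraries, by region. The 4 hippocampus and 4 cerebellum libraries with sums of 585 CPM and more carry the highest Htr2c of their regions, while the hypothalamus and amygdala libraries are high in Htr2c at sums of at most 94.0 CPM.

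Htr2a, the Gq receptor best known from cortical pyramidal neurons, was 9.37 to 18.1 CPM (median 14.0) in the hypothalamus, 3.38 to 21.5 (14.4) in the cortex, 6.67 to 20.9 (11.5) in the amygdala, 4.37 to 11.2 (8.43) in the hippocampus and at most 2.07 (0.588) in the cerebellum. The 3 highest regions overlapped throughout, and neither neighbouring difference passed (adjusted p = 0.86 for both). The fitted hypothalamus minus cortex difference was -0.032, opposite to the order by mean CPM. The spread among cortex libraries was wide, with a coefficient of variation of 41.4% against 13.8% in the hypothalamus. The amygdala exceeded the hippocampus by 0.54 ± 0.17 (adjusted p = 0.0055).

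Htr3a, the channel subunit carried by a class of cortical and hippocampal interneurons, was 7.75 to 11.8 CPM (median 10.2) in the hippocampus, 5.21 to 11.2 (7.91) in the amygdala, 4.91 to 9.50 (7.39) in the cortex, 0.748 to 4.02 (2.0) in the hypothalamus and at most 0.679 in the cerebellum, where 4 of 15 libraries had no read. The hypothalamus and cerebellum lay below every library of the other regions. The hippocampus exceeded the amygdala by 0.36 ± 0.15 (adjusted p = 0.028), which did not pass without the choroid plexus libraries (adjusted p = 0.079). Htr3b, which encodes a partner subunit, was at most 1.69 CPM in the hypothalamus and had no read in 12 of 15 hippocampus, 15 of 16 cortex, 14 of 15 cerebellum and 14 of 15 amygdala libraries.

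Of the receptors coupled to stimulatory G proteins, Htr4 was 11.7 to 17.3 CPM (median 15.1) in the hippocampus, 3.84 to 8.42 (6.65) in the hypothalamus, 0.245 to 5.32 (3.34) in the amygdala, 0.245 to 1.34 (0.737) in the cortex and at most 0.481 in the cerebellum. Every neighbour differed. The region means spanned 94.7-fold, over a cerebellum mean of 0.156 CPM that rests on 46 reads in 15 libraries. Htr7, which takes part in circadian and temperature control, was 31.9 to 43.4 CPM (median 35.3) in the hypothalamus, above every library of the other regions. It was 10.9 to 22.4 (16.3) in the amygdala, 8.77 to 13.8 (11.0) in the cortex, 7.22 to 13 (9.80) in the hippocampus and 0.714 to 2.05 (1.5) in the cerebellum. The hypothalamus exceeded the amygdala by 1.01 ± 0.077 (adjusted p = 2.0e-20), and the cortex and hippocampus did not differ by the test (0.086, interval -0.067 to 0.24, adjusted p = 0.33).

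For the 3 receptors with the widest range of region means on log2(CPM + 4), the genes with the most similar pattern over all 77 libraries were looked up among the 13016. For Htr1a they were Gabra5 (Pearson r = 0.98), Scn3b (0.97) and Slitrk3 (0.97). For Htr7 they were Tac1, which encodes substance P (0.976), Slc1a4 (0.975) and Oprl1, the nociceptin receptor (0.975). For Htr2c they were Trhr, the receptor of thyrotropin-releasing hormone (0.939), Plppr1 (0.938) and Nrp2 (0.930). These correlations describe the contrast among 5 regions, which all points of a region share. Over the 69 libraries that are not high in choroid plexus markers, r with Htr2c was 0.963 for Plppr1, 0.957 for Trhr and 0.936 for Nrp2, which was then 15th, and all 3 genes for Htr7 and 2 of the 3 for Htr1a stayed among the first 3.

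The second comparison asks whether virgin and primiparous females differ in these receptors, region by region. In the hypothalamus 1 of 8 receptors passed the threshold, where 22.6% of all genes tested did. None passed in the cerebellum (0.707% of all genes) or in the hippocampus, cortex and amygdala (0 genes called by edgeR in each, with 7.38%, 9.80% and 11.9% of all genes at an unadjusted p under 0.05, 13, 0 and 106 genes called by DESeq2 and none by limma-voom). At an unadjusted p under 0.05 the receptors numbered 3 in the hypothalamus, 2 in the cortex and 0 in each of the other regions. Of all genes, 37.1% reached that p for the hypothalamus and 19.5% for the cerebellum. The median log2 difference, primiparous over virgin, of the 8 receptors was -0.12 in the hypothalamus, 0.028 in the hippocampus, -0.15 in the cortex, -0.015 in the cerebellum and 0.0044 in the amygdala, beside medians of -0.0027 to 0.014 over all genes.

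**Figure D4:**
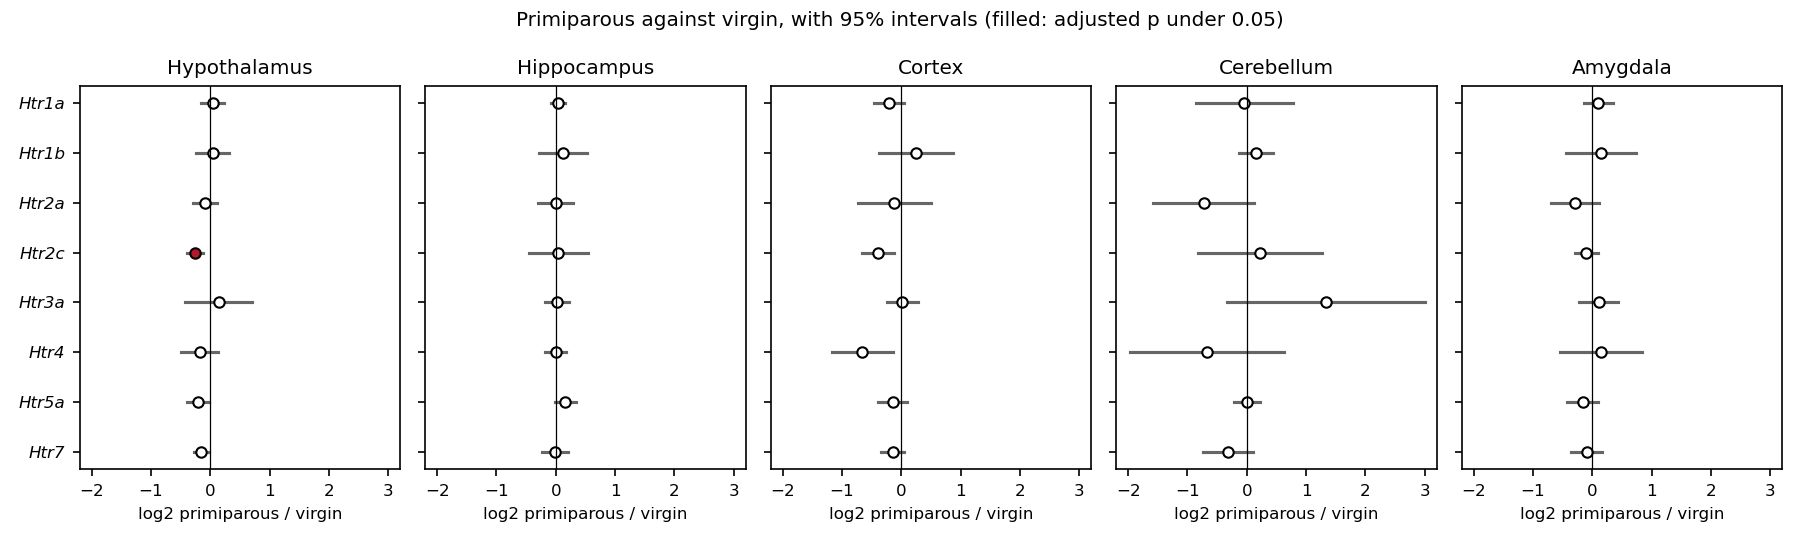
Log2 difference of primiparous over virgin (horizontal axis) with 95% intervals for the 8 receptors tested (rows) in each region (panels), filled where the adjusted p was under 0.05. Htr2c in the hypothalamus is the 1 filled point, and the intervals are widest in the cerebellum, where most receptors have few reads.

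The receptor that passed was Htr2c. In the hypothalamus it was 97.8 to 133 CPM (median 115) in the 8 virgin and 83.4 to 121 CPM (median 96.1) in the 8 primiparous libraries. The groups overlapped: primiparous animals 418, at 121 CPM, and 413, at 103 CPM, lay within the virgin range. Htr2c fell by 0.26 ± 0.070 on the log2 scale (SE, edgeR adjusted p = 0.011), from a mean of 116 ± 11.3 to 97.5 ± 11.2 CPM (SD, n = 8 each). Each library held 716 to 2689 Htr2c reads. The choroid plexus sum was 41.0 to 55.9 CPM in the virgin and 41.3 to 68.8 CPM in the primiparous libraries, with Ttr at no more than 6.50 CPM. Of the 8 choroid plexus markers tested, Ttr rose in the primiparous hypothalamus and the other 7 did not pass, and their part in the Htr2c difference was not tested.

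The fall kept its direction under every setting tried, but not its call. It passed with limma-voom (adjusted p = 0.017) and DESeq2 (0.0031) and with each library left out in turn (0.00099 to 0.028). It did not pass when all 10 groups shared 1 estimate of the spread (-0.26, adjusted p = 0.43), when the number of digits of the animal number was a covariate (-0.19, adjusted p = 0.32), or when an offset for gene length and GC content was fitted in each library (-0.075, adjusted p = 0.50). Animal numbers have 3 digits in 2 virgin and 7 primiparous mice and 4 digits in 6 virgin mice and 1 primiparous mouse, so the length of the number and the group largely coincide. The virgin libraries with 3 digits held 97.8 and 115 CPM of Htr2c and the primiparous library with 4 digits 96.9 CPM.

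Htr7 and Htr5a were also lower in the primiparous hypothalamus at an unadjusted p under 0.05 but did not pass the adjusted threshold. Htr7 was 33.1 to 43.4 CPM (median 37.9) in virgin and 31.9 to 37.6 (34.2) in primiparous libraries (-0.15 ± 0.063, adjusted p = 0.087). Htr5a was 16.5 to 23.9 CPM (18.7) in virgin and 14.6 to 19.96 (16.3) in primiparous libraries (-0.21 ± 0.093, adjusted p = 0.10). The groups overlapped for both. Htr1f had the largest difference, with 0.846 to 1.80 CPM (median 1.36) in virgin and 0.358 to 1.74 (0.513) in primiparous libraries. The latter value of 1.74 belongs to animal 413 alone, and the other 7 primiparous libraries, with 4 to 12 reads each, lay at or under 0.800 CPM, below all virgin libraries. The Htr1f difference was -0.92 ± 0.37 in the fit without the filter and did not pass (adjusted p = 0.10).

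**Figure D5:**
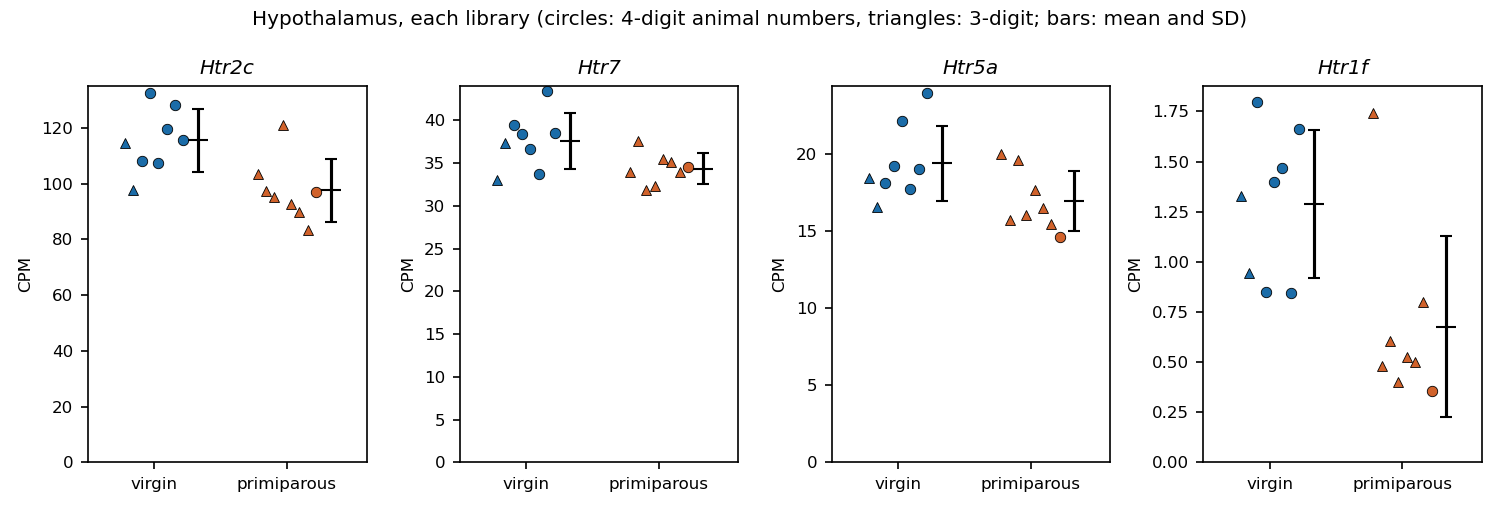
CPM of 4 receptors in each hypothalamus library (vertical axes from 0), with circles for 4-digit and triangles for 3-digit animal numbers and bars for the mean and SD of 8 libraries. The virgin and primiparous libraries overlap in every panel, and primiparous animal 413 is the high point for Htr1f.

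Outside the hypothalamus, Htr2c in the cortex was 13.3 to 22.9 CPM (median 19.0) in virgin and 11.1 to 18.7 (13.9) in primiparous libraries (-0.39 ± 0.14, adjusted p = 0.48). Htr4 in the cortex was 0.691 to 1.34 CPM (0.892) in virgin and 0.245 to 1.06 (0.632) in primiparous libraries (-0.66 ± 0.26, adjusted p = 0.48). In the amygdala Htr2c was 104 to 164 CPM in virgin and 80.1 to 128 in primiparous libraries (-0.10 ± 0.098, adjusted p = 0.73). With 1 library left out in turn, this amygdala difference ran from -0.14 to -0.0047 and did not pass. For the hippocampus (0.045 ± 0.26) and cerebellum (0.22 ± 0.54) the Htr2c difference was small beside its error and turned negative without primiparous animal 425 (-0.15) and without primiparous animal 421 (-0.42), respectively, whose libraries are high in choroid plexus markers. Without all 4 such libraries of each region it was 0.071 ± 0.14 (adjusted p = 0.85) in the hippocampus and 0.31 ± 0.24 (adjusted p = 0.56) in the cerebellum.

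The third comparison asks whether the difference between the groups is another in the hypothalamus than in each other region. These 4 tests share the hypothalamus libraries. Against the hippocampus 1 of 8 receptors passed, where 17.2% of all genes did. It was Htr5a, for which the primiparous over virgin difference was -0.21 in the hypothalamus and 0.16 ± 0.090 in the hippocampus, where virgin libraries held 10.3 to 16.5 CPM (median 15.3) and primiparous libraries 14.5 to 19.5 (15.8). The difference between these was -0.38 ± 0.13 (edgeR adjusted p = 0.041). It passed without the hippocampus library of animal 413 (-0.41, adjusted p = 0.029). It did not pass without the 4 hippocampus libraries high in choroid plexus markers (-0.29, adjusted p = 0.11), of which virgin animal 4487 held the lowest Htr5a. Nor did it pass with the animal as a block (-0.40, adjusted p = 0.059), with limma-voom (-0.34, adjusted p = 0.068), without the filter (-0.39, adjusted p = 0.060) or with the block and the length and GC correction (-0.25, adjusted p = 0.44). No receptor passed against the cortex (0 genes called by edgeR and by limma-voom, with 2.58% of all genes at an unadjusted p under 0.05), the cerebellum (15.5% of all genes called) or the amygdala (18.2%). For Htr2c the hypothalamus minus cortex difference was 0.14 (interval -0.16 to 0.43), minus hippocampus -0.32 (-0.83 to 0.18), minus cerebellum -0.41 (-1.32 to 0.50) and minus amygdala -0.16 (-0.40 to 0.089). None of these Htr2c intervals excluded 0.

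The rest of the serotonin pathway gives the setting of these values. Of the other receptors, Htr5b was 5.26 to 8.61 CPM in the hippocampus, with means of 0.569 to 2.80 CPM in the other regions. Htr6, a stimulatory receptor, had means of 2.01 to 3.56 CPM in the forebrain regions and 0.317 CPM in the cerebellum. Htr2b and Htr3b had means under 0.6 CPM in every region. Tph1, Tph2, Slc6a4 and Slc18a1 serve serotonin synthesis, reuptake and storage in serotonergic or endocrine cells, and Fev marks serotonergic neurons. All of them stayed at or below 2.53 CPM in any library. Ddc and Slc18a2, which dopamine and histamine neurons also use, had means of 67.5 and 73.4 CPM in the hypothalamus and of 5.26 to 9.54 CPM elsewhere. The monoamine oxidases, which break serotonin down, were highest there too, with means of 74.8 CPM for Maoa and 62.0 CPM for Maob.

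Of these 48 other pathway genes, including G proteins, effectors and receptor partners, 40 passed the filter. In the hypothalamus 8 rose and 8 fell in primiparous mice, against 22.6% of all genes called in either direction, and none passed in the other 4 regions. Of the 4 synthesis, transport and breakdown genes tested, Maob (66.1 to 57.8 CPM) and Maoa (79.7 to 69.9 CPM) fell, by 0.22 ± 0.054 and 0.21 ± 0.073 on the log2 scale. Of 25 G protein and effector genes 5 rose and 5 fell. Among them the inhibitory subunit Gnai3 (45.2 to 38.9 CPM, -0.24 ± 0.062) and the stimulatory subunit Gnal (224 to 196 CPM, -0.22 ± 0.047) fell, and the inhibitory subunit Gnaz (70.8 to 85.8 CPM, 0.26 ± 0.061) and the adenylyl cyclase Adcy6 (87.4 to 104.7 CPM, 0.24 ± 0.057) rose. Of 10 partner and RNA editing genes 3 rose and 1 fell, with the largest rises for Arrb2, a beta-arrestin (40.3 to 48.9 CPM), and Dlg4, the scaffold PSD-95 (409.5 to 484 CPM). The adjusted p-values of these 8 genes were 0.0038 to 0.039. With the length and GC correction 2 of the 40 genes fell in the hypothalamus and 0 rose, where 385 of all 13016 genes were called. Of these 2, Gnal was among the 16 (-0.21, adjusted p = 0.0047), and the other was not called without the correction. In the cerebellum 1 of the 40 rose with the correction, where 395 of all genes were called. Of the 16 genes, 14 kept their direction with the correction, at a median of 30.9% of the log2 difference without it (-13.7% to 130%). With the number of digits as a covariate none was called, where 3 of all 13016 genes were called in the hypothalamus. All 16 kept their direction with this covariate, at 48.7% to 106% of the log2 difference without it (median 71.3%). Gnai3 was -0.25 ± 0.079 with the digits and -0.030 ± 0.069 with the length and GC correction. Maob was -0.22 ± 0.068 and -0.10 ± 0.052, and Maoa -0.10 ± 0.088 and 0.029 ± 0.054, in the same order. These 48 genes were listed with earlier results of these data known, and whether they stand apart from other genes was not tested.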

How the data were processed

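Per the study's methods, the authors aligned single-end reads of 100 bases from polyadenylated RNA to mm10 with HISAT2 and deposited raw counts per gene from featureCounts with its own mm10 annotation, which was not used here; tool versions and the strand setting are not given in the sources used here. The deposited log2 table of expression served only for gene symbols, which it gave for 8 of the 10 receptors, and those of the remaining receptors came from GENCODE. Of 80 labelled samples, 3 virgin samples have no count column and were not analysed here. CPM was computed from library totals and RPKM from GENCODE exon lengths on GRCm38.

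Differences were tested with edgeR 4.0.16 (R 4.3.3; TMM, robust quasi-likelihood F-test), with Benjamini-Hochberg adjustment over all genes that reached 5 CPM in 8 libraries or more and a threshold of 0.05. A 95% interval is the log2 estimate and its SE under a normal distribution. The study's limma-voom (limma 3.58.1), DESeq2 1.42.0 and the other alternatives are given at the end. Scripts were tested on simulated data. Regions of an animal share its number in the labels, which pairs them: the median correlation of deviations over 10 region pairs was -0.013 to 0.10 within animals and -0.011 to 0.0067 between animals. The members and lists were chosen with earlier results of these data known. All members are named, with other serotonin genes by list, up to 4 called pathway genes per direction by size of change, and the 3 genes most correlated with each of 3 receptors. Replicates are separate animals.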

Additional observations from a re-analysis of the deposited data

Results flagged for a closer look

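Among 100 groups of 7 or 8 libraries (10 receptors, 5 regions, 2 states), 10 held a library far from the others by Dixon's test, which chance does in about 1 of 20 groups. Htr2c stood out in the hippocampus of primiparous animal 425 (77.8 CPM, others 26.0 to 47.0), in the cerebellum of primiparous animal 421 (26.6 CPM, others 2.79 to 5.96) and in the amygdala of virgin animal 4486 (164 CPM, others 104 to 116). The first pair of these libraries is high in choroid plexus markers (4050 and 3704 CPM summed), and the amygdala has no such library. Htr5a was low in the amygdala of primiparous animal 427 (9.51 CPM, others 15.5 to 20.3), in the amygdala of virgin animal 409 (11.9 CPM, others 17.9 to 21.3) and in the hippocampus of virgin animal 4487 (10.3 CPM, others 13.9 to 16.5), where the marker sum was 3660 CPM. Htr2a was high in the amygdala of primiparous animal 415 (20.9 CPM, others 6.67 to 11.6) and in the cerebellum of virgin animal 409 (2.07 CPM, others 0.394 to 0.951). Htr1f was high in the hypothalamus of primiparous animal 413 (1.74 CPM, others 0.358 to 0.800) and in the cortex of virgin animal 4490 (5.22 CPM, others 2.11 to 3.39).

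The difference between virgin and primiparous mice in Htr5a was not alike in the hypothalamus and hippocampus by the test of the difference itself (-0.38, edgeR adjusted p = 0.041). Without the hippocampus libraries high in choroid plexus markers it was -0.29 (adjusted p = 0.11), and the adjusted p ran from 0.029 to 0.44 over the alternatives.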

How the results depend on the processing

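The count of receptors called between virgin and primiparous hypothalamus went from 1 to 0 with all 10 groups in 1 fit, with the number of digits of the animal number as a covariate and with the length and GC offset. Over all genes the count there went from 2939 to 3 and 385 under the last pair. The count for the hypothalamus minus hippocampus difference went from 1 to 0 with limma-voom, without the filter, with the animal as replicate block, with the block and the length and GC offset, and without the libraries high in choroid plexus markers. For all genes it went from 2243 to 1449 with the block and to 66 with the block and offset. Against the cerebellum it went from 2015 to 505 with the block and offset and to 616 without the choroid plexus libraries, and against the amygdala from 2373 to 93 with the block and offset. In the cerebellum the 92 genes called between states became 505 with DESeq2, 395 with the offset, and 0 with the digits or without the choroid plexus libraries. The 0 genes called in the other regions became 6 for hippocampus, 6 for cortex and 142 for amygdala with all 10 groups in 1 fit, 13 in the hippocampus and 106 in the amygdala with DESeq2, 14 in the amygdala with the digits and 1 in the hippocampus without the choroid plexus libraries. The cause of these shifts was not tested.

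No virgin and primiparous sample share an animal, so those comparisons have no pairing. Of 32 neighbouring region pairs, none changed its call with the block. The near-zero Htr2a differences changed sign: hypothalamus against cortex was -0.032, but 0.089 with limma-voom and 0.021 with the block, and cortex against amygdala was 0.036, but -0.031 with limma-voom. Htr2c between states in the hippocampus was 0.045, but -0.11 with the digits and -0.15 to 0.20 with 1 library left out, turning negative without primiparous animal 425 or virgin animals 4486, 4489 or 4491. In the cerebellum it was 0.22, but -0.053 with limma-voom, -0.0038 with the digits and -0.42 to 0.53 with 1 library left out. With a pseudocount of 1, 2 of the 3 genes most like Htr1a were still among the first 3, and 1 of 3 for Htr2c and Htr7. The settings that leave out choroid plexus libraries, and animal 413 in the difference between regions, and the RefSeq-paired exon lengths were chosen after seeing the data. Depth limits Htr1d and Htr1f, which stay under 5 CPM in most libraries, and most receptors in the cerebellum.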
